A study of Mus musculus with 15 samples.

Results

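Tumours labelled HGG Sox9-GOF were set directly against tumours labelled HGG Sox9-LOF, with 3 RNA-seq libraries in each group and no controls in the test. HGG stands for high-grade glioma, an aggressive tumour of glial origin, GOF is gain and LOF is loss of function, and Sox9 is the gene concerned. The 6 libraries are part of a series of 15 from mouse brain tumour tissue, and they were chosen by their titles. The other libraries are 3 HGG controls, whose levels are given as a background, and 3 EPN controls and 3 EPN Sox9-GOF tumours (EPN is ependymoma), which share no library with the comparison. For each group the labels name the tumour type and the state of Sox9. The labels used here do not name the agents that changed Sox9, the tumour drivers, or the strain, age and sex of the mice, nor whether each replicate is a different animal. The p-values therefore measure only the spread between these samples, which may be technical.

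SOX9 is a transcription factor of the SRY-box family that binds short A- and T-rich sites in DNA. In the embryo it drives the formation of cartilage, where it switches on collagen II, IX and XI genes, and in the brain it marks neural stem cells, astrocytes and the cells of many gliomas. A tumour piece also holds microglia, blood-borne macrophages, lymphocytes, vessels and normal brain, and its RNA is a mixture of all of these.

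The 6 libraries held 7941469 to 13273065 recovered reads. Across genes, the correlation of log2 values was 0.90 to 0.95 between a Sox9-GOF and a Sox9-LOF library, 0.93 to 0.95 within Sox9-GOF and 0.92 to 0.95 within Sox9-LOF, so libraries of one group were about as unlike each other as those of different groups. All 8 glial tumour genes were present in every library and overlapped between the groups: Olig2 was at 1437 to 2316 normalized counts in Sox9-LOF and 970.9 to 2700 in Sox9-GOF, and Sox2 was at 875.2 to 1618 and 814.4 to 1356. Sex differed between libraries. The 4 Y-linked genes had 1777, 1843 and 1899 reads in Sox9-LOF 1, Sox9-LOF 3 and Sox9-GOF 2, and 1 or 2 reads in Sox9-LOF 2, Sox9-GOF 1 and Sox9-GOF 3, where Xist had 3828 to 10203 reads. Sox9-GOF 1 stood apart in ribosomal RNA precursor, with 71180 normalized counts of Rn45s against 7412 to 24130 in the other 5 libraries. Sox9-LOF 3 and Sox9-GOF 3 held choroid plexus RNA, with Ttr, the transthyretin gene, at 24210 and 9658 normalized counts against 37.66 to 376.6 in the other 4.

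Sox9 itself was higher in every library labelled Sox9-GOF. The gene (ENSMUSG00000000567.5, on chromosome 11 from 112782224 to 112787760 of GRCm38) had 772.8, 636.1 and 411.5 normalized counts in the libraries labelled Sox9-LOF 1 to 3, and 1382, 1644 and 1468 in Sox9-GOF 1 to 3. The groups did not overlap, and their means were 606.8 ± 182.4 (SD, n = 3) and 1498 ± 133.7 (SD, n = 3). The log2 fold change was 1.35 with a standard error of 0.25, an adjusted p of 0.47 by limma and of 0.0017 by DESeq2. An exact two-sided permutation test over the 6 libraries gave p = 0.1, the smallest that 3 against 3 allows. With the 9 HGG libraries scaled together, the HGG controls were at 219.6, 295.3 and 311 normalized counts, below the mean of 580.5 in the libraries labelled Sox9-LOF. The order of the means was therefore control, Sox9-LOF, Sox9-GOF, so the libraries labelled Sox9-LOF held more Sox9 mRNA than the controls. The labels do not say how function was lost, so the mRNA level cannot decide whether the label holds. The libraries are called by their labels throughout, so each difference given is one between the highest and the middle level of Sox9 mRNA. Whether reads from an altered allele enter these counts was not tested.

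Over all genes, limma called 0 of 14941 (0%) at an adjusted p under 0.05, the smallest adjusted p being 0.32, and 1100 genes had an unadjusted p under 0.05. Of these, 632 were higher (4.23% of genes tested) and 468 lower (3.13%) in Sox9-GOF. The quasi-likelihood test of edgeR also called 0 (0%), with 1209 genes at an unadjusted p under 0.05. DESeq2, which shrinks the spread of each gene differently, called 139 of 14907 genes (0.932%), of which 83 were higher (0.557%) and 56 lower (0.376%). In 129 of these 139 the groups did not overlap. With 1 library left out, DESeq2 called from 45 genes (without Sox9-GOF 1) to 312 (without Sox9-GOF 2), and from 37 to 99 of the 139 were called again. In each of these fits 137 or 138 of the 139 kept their direction, though the fits share most libraries. A lost call can also come from the smaller number of libraries. Sox9 was called in all 6 of these fits. For comparison, all 3 Sox9-GOF libraries were above all 3 Sox9-LOF libraries for 964 genes (6.45%), and below them for 1033 (6.91%). The median log2 fold change of all genes tested was -0.01, and 6.32% of genes differed by more than 1 log2 unit. Across genes, the fold change had a Spearman correlation of -0.27 with GC content and 0.13 with transcript length, which is a description, since genes are not independent. Genes are named below by the calls of DESeq2 or by their values, and none of them passed limma.

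**Figure D1:**
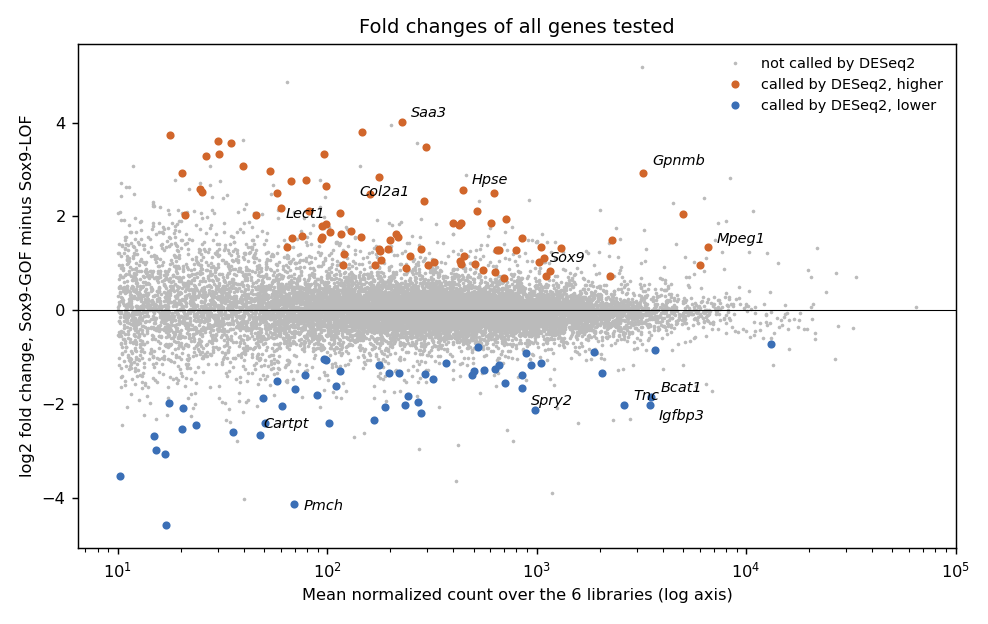
Each point is 1 of the 14941 genes tested, leaving out names turned into dates. Axes are the mean normalized count over the 6 libraries (log axis) and the log2 fold change (Sox9-GOF minus Sox9-LOF). Points called higher or lower by DESeq2 (83 and 56 among all genes) are coloured. Gpnmb and Mpeg1 stand out above and Bcat1, Igfbp3 and Tnc below at high counts.

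The 10 leading higher and 10 leading lower genes are those with the smallest unadjusted p among genes with a mean of at least 50 normalized counts and groups that do not overlap. Predicted gene models and names turned into dates were left out. DESeq2 called all 20, and their limma adjusted p was 0.32 to 0.53. Since the 20 were picked from these same libraries, the calls and the lack of overlap are no independent support. With 1 library left out DESeq2 called 19 or 20 of them, losing Por without Sox9-GOF 1 (adjusted p = 0.051) and Bag2 without Sox9-LOF 1 (adjusted p = 0.055). Among the higher genes, Gpnmb, a lysosomal membrane glycoprotein of lipid-laden phagocytes, had 572.3, 941.7 and 556.4 normalized counts in Sox9-LOF 1 to 3, and 9758, 4328 and 3187 in Sox9-GOF 1 to 3. Its log2 fold change was 2.93 (SE 0.42), with a DESeq2 adjusted p of 1.89e-08. Cst7, which encodes the cathepsin inhibitor cystatin F, had 157.7, 185.8 and 177.3 in Sox9-LOF against 1584, 550.1 and 1104 in Sox9-GOF, a ratio of means of 6.22. Hpse, the enzyme heparanase that cuts heparan sulfate in the matrix, had 136.9, 113.5 and 107.8 against 922.9, 402.5 and 970.9, a log2 fold change of 2.57 (SE 0.35). H2-M2, a non-classical MHC class I gene, had 20.79, 22.45 and 38.25 against 178.8, 159.3 and 173.1, a log2 fold change of 2.66 (SE 0.32). Its ratio of means was 6.27, and DESeq2 gave it an adjusted p of 1.03e-09, the smallest of all genes.

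The other leading higher genes included more genes of phagocytes. Cybb, the catalytic subunit of the phagocyte NADPH oxidase, had 359.5, 261.9 and 224.9 normalized counts in Sox9-LOF and 1700, 660.7 and 1091 in Sox9-GOF. Ctsh, the lysosomal protease cathepsin H, had 744.7, 672.3 and 763.9 against 2556, 1375 and 1751. Ly9, a cell-surface receptor of lymphocytes and macrophages, had 168.7, 158.4 and 151.8 against 357.6, 353.1 and 497.9. For these 3 genes the log2 fold change was 1.95, 1.34 and 1.31. Abcc3, an efflux transporter, had 129.6, 88.55 and 95.05 against 283.8, 324.9 and 268.4, a log2 fold change of 1.49 (SE 0.23). Lect1, now named Cnmd, encodes chondromodulin, a cartilage glycoprotein that keeps vessels out, and had 39.13, 43.65 and 44.05 against 232.5, 135.7 and 191.6, a log2 fold change of 2.08 (SE 0.28). The tenth was Sox9.

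Among the leading lower genes, Spry2, a Sprouty protein that the RAS-ERK pathway induces and that dampens it in turn, had 1229, 1434 and 1201 normalized counts in Sox9-LOF and 318.8, 493.6 and 419.3 in Sox9-GOF. The groups were far apart, with a log2 fold change of -1.67 (SE 0.21) and a DESeq2 adjusted p of 2.89e-08. Ier3, an early response gene, had 396.2, 269.4 and 284 against 131.4, 127.1 and 111.1, and Bag2, a co-chaperone of HSP70, had 178.5, 160.9 and 154.2 against 68.42, 76.9 and 54.61. Por, the electron donor of microsomal cytochrome P450 enzymes, had the smallest spread and the smallest difference of the 20, with 1049, 1234 and 1206 against 566, 644.2 and 653.4 and a log2 fold change of -0.90 (SE 0.16). Sh3pxd2b, an adaptor of the matrix-degrading structures called podosomes, had 1340, 1459 and 889.1 against 377.1, 548.5 and 464.6, a log2 fold change of -1.39.

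The other 5 lower genes included genes known for neurons. TRIM9 is a ubiquitin ligase of neurons, and Trim9 had 3184, 2473 and 3171 normalized counts in Sox9-LOF and 922.1, 1218 and 1387 in Sox9-GOF, a log2 fold change of -1.33. Cacng5, an AMPA receptor accessory subunit, had 291, 613.6 and 242.3 against 87.85, 96.52 and 73.12. Htr3a, the serotonin-gated channel of a class of interneurons, had 99.04, 122.2 and 102 against 26.43, 33.74 and 38.87. Amigo2, a neuronal adhesion protein, had 204.2, 127.2 and 169.2 against 42.76, 60.42 and 56.46, and Cartpt, a neuropeptide precursor of the hypothalamus, had 90.48, 143.4 and 285.1 against 19.44, 39.23 and 30.54. The neuron marker list did not stand as far from 0: 15 of its 24 tested members were lower and 9 higher, with a median of -0.16. Without overlap, 3 were lower (6.91% of all genes) and 0 higher, and DESeq2 called 0. Gad1 (log2 fold change -0.94) and Gad2 (-0.93) were among these 3. Syt1 (0.25, and -0.15 without Sox9-LOF 2) and Snap25 (-0.45) overlapped between the groups. Summed over the 24 members the list was at 36820 to 76640 normalized counts in Sox9-LOF and 42130 to 64220 in Sox9-GOF, with no member at 0. Its part in the lower genes was not tested.

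**Figure D2:**
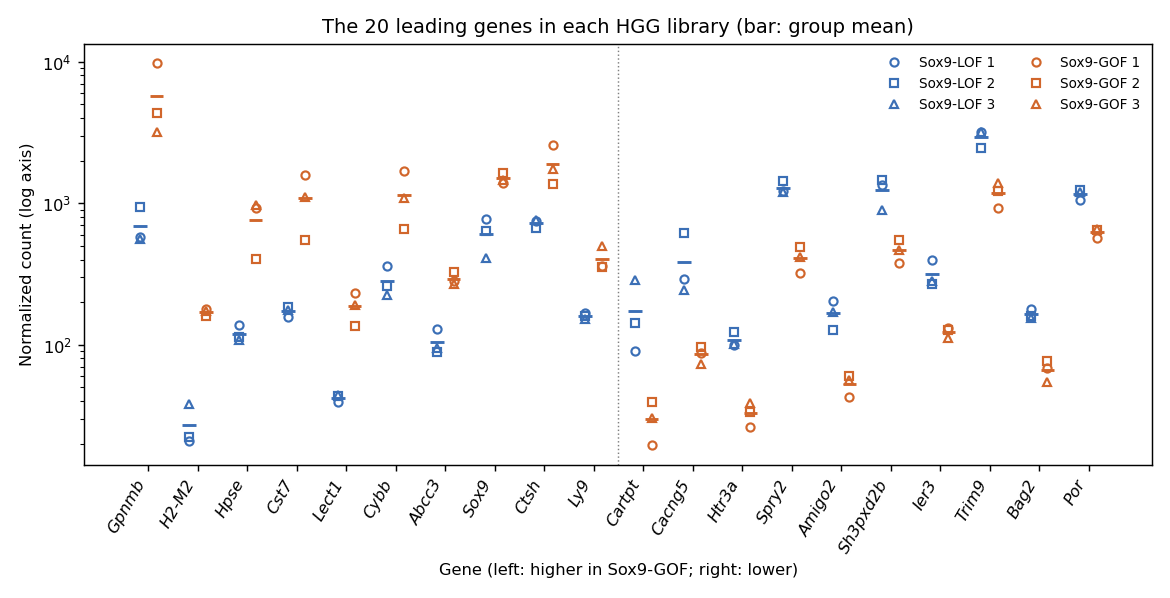
Normalized count (log axis) of the 20 leading genes in each library; circles, squares and triangles are replicates 1, 2 and 3, and bars are group means. The Sox9-LOF values of Gpnmb lie at 572.3, 941.7 and 556.4 and its Sox9-GOF values at 9758, 4328 and 3187.

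The largest DESeq2-called fold changes in each direction (5 each, at a mean of at least 50 normalized counts) were also read, by a rule added after the values were seen. On the higher side Saa3, an acute-phase serum amyloid, had 25.68, 47.39 and 4.637 normalized counts in Sox9-LOF and 908.1, 134.2 and 249 in Sox9-GOF, a log2 fold change of 4.01 (SE 0.91). Dnase1l3, a nuclease of macrophages and dendritic cells, was at 3.80, Nxf3, an RNA export factor, at 3.49 and H2-Eb2, an MHC class II gene, at 3.34, all without overlap between the groups. By DESeq2, Saa3 and H2-Eb2 were not called without Sox9-GOF 1 (adjusted p of 0.051 and 0.20) but were called in the other 5 fits with 1 library left out. Nxf3 was lost without Sox9-GOF 1 (adjusted p = 0.078) or Sox9-LOF 3 (0.23), and Dnase1l3 was called in only 2 of the 6, without Sox9-GOF 2 and without Sox9-LOF 2. The next largest was Ifng at 2.98, where 260.5 normalized counts in Sox9-GOF 1 stood against 5.493 and 37.95 in Sox9-GOF 2 and 3. Without that library the log2 fold change of Ifng was 1.62, and DESeq2 gave no adjusted p. DESeq2 called Ifng only without Sox9-GOF 2 or Sox9-GOF 3 among the fits with 1 library left out. On the lower side Pmch, the precursor of melanin-concentrating hormone, a hypothalamic peptide, was at -4.14 and had 255.6, 1.247 and 156.5 in Sox9-LOF against 2.332, 1.569 and 0.9255 in Sox9-GOF, so 2 libraries carried it and DESeq2 called it only without Sox9-LOF 1 or Sox9-LOF 2 among the fits with 1 library left out. Oxt, the oxytocin gene, also of the hypothalamus and chosen after its values were seen, had 39.13, 43.65 and 20.86 against 8.552, 1.569 and 7.404. Fam101a and, as above, Cartpt were at -2.40, Lpo, a lactoperoxidase, at -2.35 and Arl4d, a small GTPase, at -2.18; Lpo and Arl4d overlapped between the groups. With 1 library left out, DESeq2 lost Fam101a without Sox9-LOF 2 alone (adjusted p = 0.16), called Lpo only without Sox9-GOF 3 or Sox9-LOF 3, Arl4d only without Sox9-LOF 1 and Oxt only without Sox9-LOF 3.

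Cartilage genes known as SOX9 targets leaned towards the tumours with more Sox9 mRNA. Of 22 genes in the list 21 were in the tables and 19 could be tested, and 17 had a positive log2 fold change, with a median of 0.50 against -0.01 over all genes. DESeq2 called 4, all higher (0.557% of all genes), and 5 did not overlap, all higher (6.45% of all genes). Col9a1, a chain of collagen IX, had 19.56, 92.29 and 40.57 normalized counts in Sox9-LOF and 212.3, 452 and 143.5 in Sox9-GOF, a log2 fold change of 2.48 (SE 0.61) and a DESeq2 adjusted p of 0.016. Hapln1, the link protein that ties aggrecan to hyaluronan, had 129.6, 61.11 and 121.7 against 252.7, 476.3 and 239.7, a log2 fold change of 1.62 (SE 0.38). In both genes all Sox9-GOF libraries were above all Sox9-LOF libraries. Col2a1, the collagen II gene and the classical SOX9 target, chosen after its values were seen, had 30.57, 137.2 and 63.75 against 95.63, 1074 and 341.5. Here the groups overlapped, and DESeq2 gave an adjusted p of 0.046. Col11a1, a chain of collagen XI, had 343.6, 733.4 and 497.3 against 901.1, 1260 and 1004 and was not called by DESeq2 (adjusted p = 0.11). The SOX9 partners Sox5 and Sox6 were at 0.25 and 0.50, also not called, and Acan, the aggrecan gene, was at 0.71. Over the libraries left out in turn, the median ran from 0.35 without Sox9-GOF 2 to 0.97 without Sox9-LOF 3, with 13 to 18 members positive, and it was 1.40 without both Sox9-GOF 1 and Sox9-LOF 3. Of the DESeq2 calls, that of Lect1 held in all 6 fits with 1 library left out. Hapln1 lost it without Sox9-GOF 1, Sox9-GOF 2 or Sox9-LOF 2 (adjusted p of 0.057, 0.096 and 0.11), Col9a1 kept it only without Sox9-GOF 3 or Sox9-LOF 2, and Col2a1 only without Sox9-GOF 1 or Sox9-LOF 2. The score of the list, its mean difference from each gene's own mean over the 6 libraries, was -0.17 in Sox9-GOF 1, between -0.42 and -0.02 in Sox9-LOF 2 and 3, so that library did not follow the others of its group. In the EPN tumours, Sox9 was 1.04 log2 units higher in Sox9-GOF than in controls, and the list had 9 members higher and 10 lower with a median of -0.06.

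The stretches of 250 bases before the transcription start of 5 of these genes are printed from the RefSeq promoter table (GRCm38.p6), 5′ to 3′ on the strand of the gene, because the 3 cartilage genes were called higher by DESeq2 and Gpnmb and Spry2 are among the 20 leading genes. Capitals mark ACAAT or ACAAAG, core sequences that SOX proteins bind, on either strand (ATTGT or CTTTGT). For Col9a1, which has 2 starts in the table, the upstream one is given.
Lect1 (chr14:79662184-79662433, minus strand): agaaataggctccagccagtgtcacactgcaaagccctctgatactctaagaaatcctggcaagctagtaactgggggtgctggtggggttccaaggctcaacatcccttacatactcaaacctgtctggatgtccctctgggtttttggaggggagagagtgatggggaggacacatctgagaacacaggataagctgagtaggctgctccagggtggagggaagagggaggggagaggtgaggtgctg
Col9a1 (chr1:24177360-24177609, plus strand): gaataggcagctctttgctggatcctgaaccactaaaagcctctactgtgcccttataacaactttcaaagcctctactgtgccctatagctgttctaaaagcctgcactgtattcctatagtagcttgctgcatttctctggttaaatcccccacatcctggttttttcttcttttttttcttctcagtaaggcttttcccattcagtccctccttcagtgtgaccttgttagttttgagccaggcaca
Hapln1 (chr13:89540386-89540635, plus strand): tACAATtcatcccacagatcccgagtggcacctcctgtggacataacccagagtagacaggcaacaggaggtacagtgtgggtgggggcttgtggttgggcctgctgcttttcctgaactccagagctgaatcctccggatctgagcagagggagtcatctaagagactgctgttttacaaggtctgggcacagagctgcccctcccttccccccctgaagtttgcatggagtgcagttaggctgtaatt
Gpnmb (chr6:49036268-49036517, plus strand): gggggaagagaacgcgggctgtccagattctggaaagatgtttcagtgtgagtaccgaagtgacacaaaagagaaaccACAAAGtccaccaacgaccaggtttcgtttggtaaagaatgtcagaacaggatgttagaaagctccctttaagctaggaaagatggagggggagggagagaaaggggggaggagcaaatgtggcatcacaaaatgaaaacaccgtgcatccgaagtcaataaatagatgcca
Spry2 (chr14:105896820-105897069, minus strand): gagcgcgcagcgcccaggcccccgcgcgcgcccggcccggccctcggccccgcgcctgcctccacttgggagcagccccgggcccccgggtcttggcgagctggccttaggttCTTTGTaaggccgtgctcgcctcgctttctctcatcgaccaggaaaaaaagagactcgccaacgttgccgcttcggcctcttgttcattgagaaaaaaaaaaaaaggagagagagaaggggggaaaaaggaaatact
Lect1 and Col9a1 held none of these letters in the window, Hapln1 held ACAAT 249 bases before the start, Gpnmb held ACAAAG 172 bases before it and Spry2 held CTTTGT 137 bases before it. Of 32851 windows of this length in the table, 27.7% held ACAAT or ATTGT, 16.5% held ACAAAG or CTTTGT and 38.8% held either, so 3 of 5 is a description and not a mark of these genes.

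Genes of microglia and macrophages were mostly higher in Sox9-GOF. Of 24 members 21 had a positive fold change, with a median of 0.69, and 10 were without overlap and higher (6.45% of all genes) and 0 without overlap and lower. DESeq2 called 4, all higher (0.557% of all genes). Adgre1, which encodes the macrophage marker F4/80, had 661.5, 326.8 and 358.2 normalized counts in Sox9-LOF and 1331, 1036 and 1369 in Sox9-GOF, a log2 fold change of 1.53 (SE 0.29). Lyz2, the lysozyme of macrophages, had 1963, 1146 and 685.1 against 2770, 3349 and 3764. Aif1, the calcium-binding protein IBA1, had 459.8, 414.1 and 431.2 against 1756, 672.5 and 1027, and C1qc, a chain of complement C1q, had 3970, 4161 and 3957 against 9503, 5691 and 8865. In all 4 the lowest Sox9-GOF library was above the highest Sox9-LOF library. With 1 library left out, DESeq2 did not call Adgre1 without Sox9-GOF 1 (adjusted p = 0.078) or Sox9-GOF 3 (0.062), and it called Lyz2 only without Sox9-LOF 1 and Aif1 and C1qc only without Sox9-GOF 2. Genes that mark resting microglia were split. P2ry12 was at 0.77, Cx3cr1 at 0.54 and Tmem119 at 0.29, Sall1 and Gpr34 were each at 0.13, and Fcrls and Olfml3 were negative. The 3 members with a negative value were Cd163 (-1.05), Fcrls (-0.95, and 0.22 without Sox9-GOF 1) and Olfml3 (-0.41). Summed over the list, Sox9-LOF libraries held 39540 to 42660 and Sox9-GOF libraries 56870 to 90260 normalized counts, with no member at 0. In bulk tissue, more cells of a type and more RNA per cell cannot be told apart. The median stayed between 0.52 and 0.75 when any 1 library was left out, was 0.64 with sex as a term and 0.73 without both Sox9-GOF 1 and Sox9-LOF 3. In the EPN tumours 23 of the 24 were lower in Sox9-GOF than in controls, with a median of -0.47.

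Outside the list, Mpeg1, the pore-forming perforin-2 of macrophages, had 4571, 2799 and 3666 normalized counts in Sox9-LOF and 9779, 7046 and 11480 in Sox9-GOF, and Tlr4, the receptor for bacterial lipopolysaccharide, had 108.8, 119.7 and 111.3 against 259.7, 197 and 216.6. Both were chosen after their values were seen, and DESeq2 called both (adjusted p of 0.0014 and 0.016). The call of Mpeg1 held in all 6 fits with 1 library left out, that of Tlr4 only without Sox9-GOF 2. The list of disease-associated microglia and lipid genes was less even, with 15 of 20 positive and a median of 0.49. DESeq2 called 2, Gpnmb and Cst7, both higher (0.557% of all genes). Without overlap, 5 were higher (6.45% of all genes) and 1 lower (6.91% of all genes). Gpnmb and Cst7 lay far above the next, Lgals3 (galectin-3) at 0.87, while Spp1 (osteopontin) was at 0.06 by limma and -0.98 by DESeq2 and Lpl (lipoprotein lipase) at -0.51. Without Sox9-LOF 3 the median of the list was 0.13.

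Antigen presentation and lymphocyte genes had positive fold changes throughout, but with wide spreads. All 20 tested MHC and antigen presentation genes were positive, with a median of 1.15; 12 had an unadjusted p under 0.05 (4.23% of all genes were higher at that level), 1 was without overlap (6.45% of all genes), below the share of all genes, and DESeq2 called H2-D1 alone (0.557%). H2-D1, a class I heavy chain, had 959.9, 1510 and 2543 normalized counts in Sox9-LOF and 14500, 2120 and 8461 in Sox9-GOF. H2-Aa, a class II chain, had 1542, 492.7 and 6485 against 20410, 5118 and 16390. In both genes Sox9-GOF 2 was below Sox9-LOF 3, and DESeq2 called H2-D1 again only without one of these 2 libraries. Ciita, the master regulator of class II genes, had 112.5, 19.96 and 183.1 against 1700, 195.4 and 534, the member without overlap. Leaving out 1 library at a time, all 20 stayed positive and the median was 0.78 (without Sox9-GOF 1) to 1.58 (without Sox9-LOF 3). The EPN comparison also had 20 of 20 positive, with a median of 0.69. The list of RNA quality genes holds the ribosomal RNA precursor, other non-coding RNAs and the protein-coding gene Lars2. It lay the same way, with 7 of 7 positive and a median of 0.55 (0.23 without Sox9-GOF 1). Its score, the mean difference from each gene's own mean, was -0.64, -0.67 and 0.02 in Sox9-LOF and 1.52, -0.75 and 0.51 in Sox9-GOF, beside -0.97, -1.35 and 0.26 and 1.52, -0.13 and 0.67 for the MHC list. Summed, it was at 16850 to 17350 normalized counts in Sox9-LOF and 14460 to 86170 in Sox9-GOF, and its part in the MHC and lymphocyte values was not tested.

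All 20 tested lymphocyte genes were positive, with a median of 1.39. Of these, 2 did not overlap and were higher (6.45% of all genes), and DESeq2 called 1 (0.557% of all genes). Cd22, a B-cell lectin that microglia also express, had 39.13, 43.65 and 49.84 against 100.3, 98.09 and 234.2, and DESeq2 called it (adjusted p = 0.030), though not without Sox9-GOF 3, Sox9-LOF 1 or Sox9-LOF 2 (adjusted p of 0.19, 0.16 and 0.15). Ptprc, the pan-leukocyte CD45, had 402.3, 268.2 and 357 against 1353, 405.7 and 957.9. Cd3e, a chain of the T-cell receptor complex, was low and uneven, with 1.223, 2.494 and 47.52 against 40.43, 14.12 and 44.42. Summed over the 22 members in the tables, Sox9-LOF libraries held 447.8 to 1146 and Sox9-GOF libraries 832.5 to 2671 normalized counts, and Sox9-LOF 3 exceeded Sox9-GOF 2. Slamf7, a receptor of natural killer, plasma and myeloid cells chosen after its values were seen, did separate the groups, with 20.79, 9.978 and 25.5 against 168.7, 65.13 and 185.1, and DESeq2 called it whichever library was left out. Gzma, the killer-cell protease granzyme A, had 1.223, 0 and 5.796 against 170.3, 4.708 and 24.99, and was led by Sox9-GOF 1 in the same way as Ifng. Interferon-response genes as a whole were level, with 14 of 30 positive and a median of -0.01, although Irf1, an interferon-induced factor, had 1132, 697.2 and 1145 against 6884, 1152 and 2267 and Cxcl9, an interferon-gamma chemokine, had 184.6, 63.61 and 456.7 against 3693, 209.5 and 932.9. Without Sox9-GOF 1 the median of the interferon list was -0.37, and without Sox9-GOF 2 it was 0.42.

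**Figure D3:**
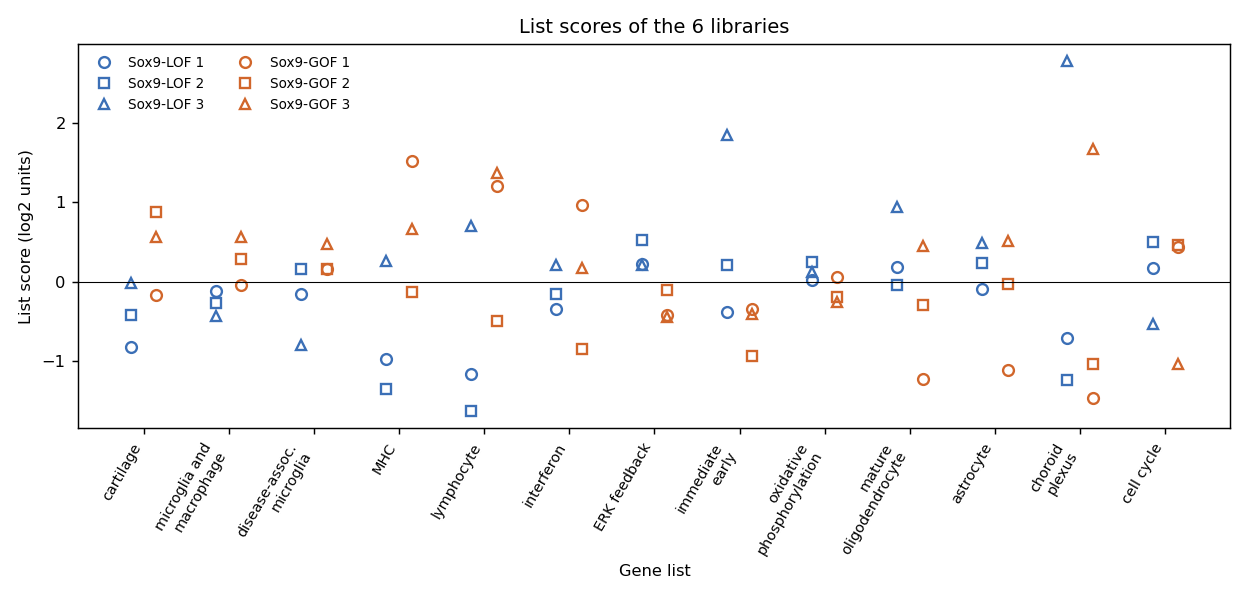
Score of 13 gene lists in each library, as the mean over members of log2 normalized count minus the gene's mean over the 6 libraries; circles, squares and triangles are replicates 1, 2 and 3. ERK feedback genes separate the groups. Microglia and macrophage genes do so narrowly (-0.115 in Sox9-LOF 1, -0.043 in Sox9-GOF 1), as do disease-associated microglia genes (0.156 in Sox9-LOF 2, 0.159 in Sox9-GOF 1). Immediate early genes are at 1.85 in Sox9-LOF 3 and choroid plexus genes at 2.78 in Sox9-LOF 3 and 1.67 in Sox9-GOF 3.

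Feedback genes of the RAS-ERK pathway were lower in Sox9-GOF. ERK signalling induces Sprouty and dual-specificity phosphatase genes, whose products in turn limit it, so their mRNA is commonly read as a measure of pathway output. Of 18 members, 17 had a negative log2 fold change with a median of -0.58, 7 did not overlap and were lower (6.91% of all genes), and 0 did not overlap and were higher. DESeq2 called 2, Spry2 and Dusp5 (0.376% of all genes were lower by its call). Dusp5, a nuclear ERK phosphatase, had 89.26, 114.7 and 219.1 normalized counts in Sox9-LOF and 36.54, 29.03 and 47.2 in Sox9-GOF, a log2 fold change of -1.80 (SE 0.40). The DESeq2 call of Spry2 held with any library left out, and that of Dusp5 was lost without Sox9-GOF 1 (adjusted p = 0.097) or Sox9-LOF 3 (0.054). Spry4 had 523.3, 402.9 and 368.6 against 83.97, 249.5 and 152.7, and DESeq2 did not call it (adjusted p = 0.061). Dusp6, the cytoplasmic ERK phosphatase, had 1303, 1280 and 1675 against 868.4, 971.4 and 947.7, a log2 fold change of -0.60 (SE 0.18). The ETS factors Etv4, Etv5 and Etv1 were at -0.59, -0.35 and -0.25, and Il17rd at 0.52 was the exception. The median ran from -0.65 to -0.36 over the libraries left out in turn, was -0.54 with sex as a term and -0.57 without both Sox9-GOF 1 and Sox9-LOF 3. The receptor tyrosine kinases upstream lay closer to 0 as a list, with 8 of 22 positive and a median of -0.10, and Pdgfra overlapped with 3451, 4840 and 7377 against 3797, 10050 and 3116. In the EPN tumours the feedback list was near 0, with 8 positive, 10 negative and a median of -0.09.

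Immediate early genes, which switch on within minutes of a stimulus or of tissue handling, were all negative. All 20 had a negative fold change, with a median of -1.09, and 7 did not overlap and were lower (6.91% of all genes). DESeq2 called 1 of the 20, Ier3, which was among these 7 (0.376% of all genes were called lower). The size of the difference leaned on Sox9-LOF 3: Fos had 266.6, 663.5 and 5782 normalized counts in Sox9-LOF and 159.4, 232.3 and 366.5 in Sox9-GOF, and Egr1 had 732.4, 924.2 and 4135 against 534.9, 331.1 and 566.4, both chosen after their values were seen. Without Sox9-LOF 3 the median was -0.60. Klf4 and Egr2 had the same pattern without overlap, with 58.69, 79.82 and 177.3 against 34.21, 36.1 and 42.57 for Klf4. Heat shock and unfolded protein genes were negative in 17 of 20 with a median of -0.48, and the stress-induced HSP70 gene Hspa1a, also chosen after its values were seen, had 140.6, 1914 and 13630 against 667.9, 250.3 and 175.8. Summed over the list, immediate early genes were at 6630 to 45040 in Sox9-LOF and 4918 to 7475 in Sox9-GOF. The part of tissue handling in these values was not tested.

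Single genes of the matrix, metabolism and growth control were called in both directions, in part with 1 library against its group. Tnc, the matrix protein tenascin C of radial glia and gliomas, had 6316, 6177 and 787.1 normalized counts in Sox9-LOF and 596.3, 1069 and 709.9 in Sox9-GOF, and Igfbp3, an IGF-binding protein, had 6869, 9586 and 1119 against 669.4, 1596 and 1025. Both were called by DESeq2 (adjusted p of 0.015 and 0.022) but in both Sox9-LOF 3 lay within the range of Sox9-GOF, and with 1 library left out DESeq2 called them only without Sox9-GOF 2 or Sox9-LOF 3. Bcat1, the branched-chain transaminase of gliomas, had 9906, 5052 and 2170 against 1561, 1354 and 1081, and Cdkn2b, the cyclin-dependent kinase inhibitor p15, had 424.3, 354.2 and 143.7 against 72.31, 87.1 and 45.35. These 2 did not overlap, though Sox9-LOF 3 was again the lowest of its group. DESeq2 called Cdkn2b whichever library was left out, and lost Bcat1 without Sox9-GOF 3 (adjusted p = 0.061) or Sox9-LOF 1 (0.055); Igfbp3, Bcat1 and Cdkn2b were chosen after their values were seen. Of 24 collagen and mesenchymal genes 20 were negative, with a median of -0.37. Col4a1, a basement membrane collagen, had 933, 1300 and 1558 against 557.4, 876.5 and 520.1. The only member of that list called by DESeq2 was Lum, the proteoglycan lumican (0.557% of all genes were called higher). It went the other way, with 39.13, 32.43 and 48.68 against 174.9, 215 and 80.52. Mmp2, a gelatinase, was likewise called and higher, with 80.7, 126 and 131 against 227.8, 357.8 and 248. Without Sox9-LOF 2 DESeq2 called neither (adjusted p of 0.066 and 0.054), without Sox9-GOF 1 it did not call Lum (adjusted p = 0.11), and it called Mmp2 only without Sox9-GOF 1 or Sox9-LOF 3. DESeq2 called 0 of 30 cell cycle genes and limma 0, with 1, a lower gene, at an unadjusted p under 0.05 by limma (3.13% of all genes were lower at that level). Of the 30, 12 were positive with a median of -0.05, but the list turned with single libraries: the median was 0.38 without Sox9-GOF 3, -0.37 without Sox9-LOF 3 and -0.63 without both Sox9-GOF 1 and Sox9-LOF 3; Mki67 had 1583, 1919 and 1149 against 2695, 4375 and 916.3.

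Hypoxia, vessel and metabolic genes were mostly negative by small amounts. Slc2a1, the glucose transporter GLUT1 of blood-brain barrier endothelium and of hypoxic cells, had 1206, 1165 and 1979 normalized counts in Sox9-LOF and 645.3, 555.6 and 733 in Sox9-GOF, a log2 fold change of -1.13 (SE 0.24), and DESeq2 called it (adjusted p = 0.013), but not without Sox9-GOF 1 (0.15) or Sox9-GOF 2 (0.067). Vegfa, the vascular growth factor, had 588.1, 760.8 and 1056 against 450.9, 317 and 548.8, and Flt1, its receptor on endothelium, had 280, 222 and 341.9 against 159.4, 160.9 and 176.8. Neither overlapped, and neither was called. Over the lists, 16 of 24 hypoxia and glycolysis genes and 17 of 20 endothelial genes were negative, with medians of -0.27 and -0.39. Nuclear genes of oxidative phosphorylation were negative in 33 of 34 with a median of -0.26, and 11 did not overlap and were lower (6.91% of all genes). DESeq2 called 0 of the 34 and limma 0, with 6 at an unadjusted p under 0.05 by limma. These 6 were lower (3.13% of all genes were lower at that level). With fold changes corrected for GC content and length, the median of this list was -0.17. Cholesterol synthesis and uptake genes were negative in 17 of 20, with a median of -0.31.

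Lists of normal glia depended on single libraries. Mature oligodendrocyte genes were negative in 16 of 16 with a median of -0.79. Trf, transferrin, had 6171, 5352 and 5308 normalized counts in Sox9-LOF and 2783, 2560 and 4293 in Sox9-GOF, and Mbp, myelin basic protein, overlapped with 21830, 22440 and 57450 against 5518, 17080 and 34290. Without Sox9-GOF 1 the median was -0.30, and without both Sox9-GOF 1 and Sox9-LOF 3 it was -0.02. Astrocyte genes were negative in 21 of 24 with a median of -0.48, of -0.02 without Sox9-GOF 1 and of 0.09 without both. Gfap, the astrocyte filament gene, ranged from 21930 to 44060 in Sox9-LOF and from 13910 to 54580 in Sox9-GOF. Motile cilia genes moved with them, with a median of -0.43, of -0.06 without Sox9-GOF 1 and of 0.31 without both. The choroid plexus list changed sign, from -1.32 without Sox9-GOF 3 to 0.79 without Sox9-LOF 3. The part of normal tissue in other gene groups was not tested.

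The NOTCH, TGF-beta and BMP, and chromatin lists lay close to 0, and the WNT and hedgehog lists lay lower. Single members were called in some of the lists. In the NOTCH pathway (10 of 23 positive, median -0.14), Lfng, which adds sugars to NOTCH receptors, had 660.3, 764.5 and 565.7 against 389.5, 386.1 and 374.8 and was called by DESeq2 (adjusted p = 0.021). Its family of targets was split: Hes1 had 173.6, 185.8 and 115.9 against 94.85, 86.31 and 92.55, whereas Hey2 had 56.25, 113.5 and 133.3 against 275.2, 224.4 and 182.3. In the WNT pathway (median -0.21) the receptor gene Fzd1 had 734.9, 819.4 and 557.5 against 160.2, 392.3 and 295.2, and in the TGF-beta and BMP list (median -0.08) the receptor gene Tgfbr1 had 782.6, 749.6 and 944.7 against 1262, 1358 and 1832. DESeq2 called both, with adjusted p of 0.044 and 0.046. All 11 hedgehog pathway genes were negative with a median of -0.43, which was -0.07 without both Sox9-GOF 1 and Sox9-LOF 3. Among axon guidance receptors, Unc5b was lower (264.1, 281.9 and 290.9 against 79.3, 104.4 and 159.2) and Unc5c higher (319.1, 336.7 and 478.7 against 782.9, 1321 and 732.1), both called by DESeq2. With 1 library left out, Lfng and Tgfbr1 were called only without Sox9-LOF 3, Fzd1 only without Sox9-LOF 3 or Sox9-GOF 2 and Unc5b only without Sox9-GOF 3, while Unc5c was lost without Sox9-LOF 1 or Sox9-LOF 2 (adjusted p of 0.11 in each). Other SOX and NFI factors did not follow Sox9: 7 of 19 were positive, with a median of -0.11, and Sox1, Sox7, Sox17 and Sox21 did not overlap and were lower (6.91% of all genes), none of them called. Sox1, a neural progenitor factor, had 174.9, 177.1 and 160 against 44.32, 87.1 and 112.9. Enzymes of histone acetylation and deacetylation were positive in 13 of 40 with a median of -0.05, histone methylation genes in 12 of 25 with a median of -0.02, and DESeq2 and limma called 0 in either list, with 3 of 40 and 1 of 25 at an unadjusted p under 0.05 by limma (4.23% of all genes were higher and 3.13% lower at that level). With 1 library left out, the median changed sign in several of these lists, running from -0.38 to 0.20 for NOTCH, from -0.35 to 0.09 for TGF-beta and BMP, from -0.34 to 0.02 for SOX and NFI factors and from -0.18 to 0.12 for histone methylation. Ribosomal protein genes had a median of 0.05.

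**Figure D4:**
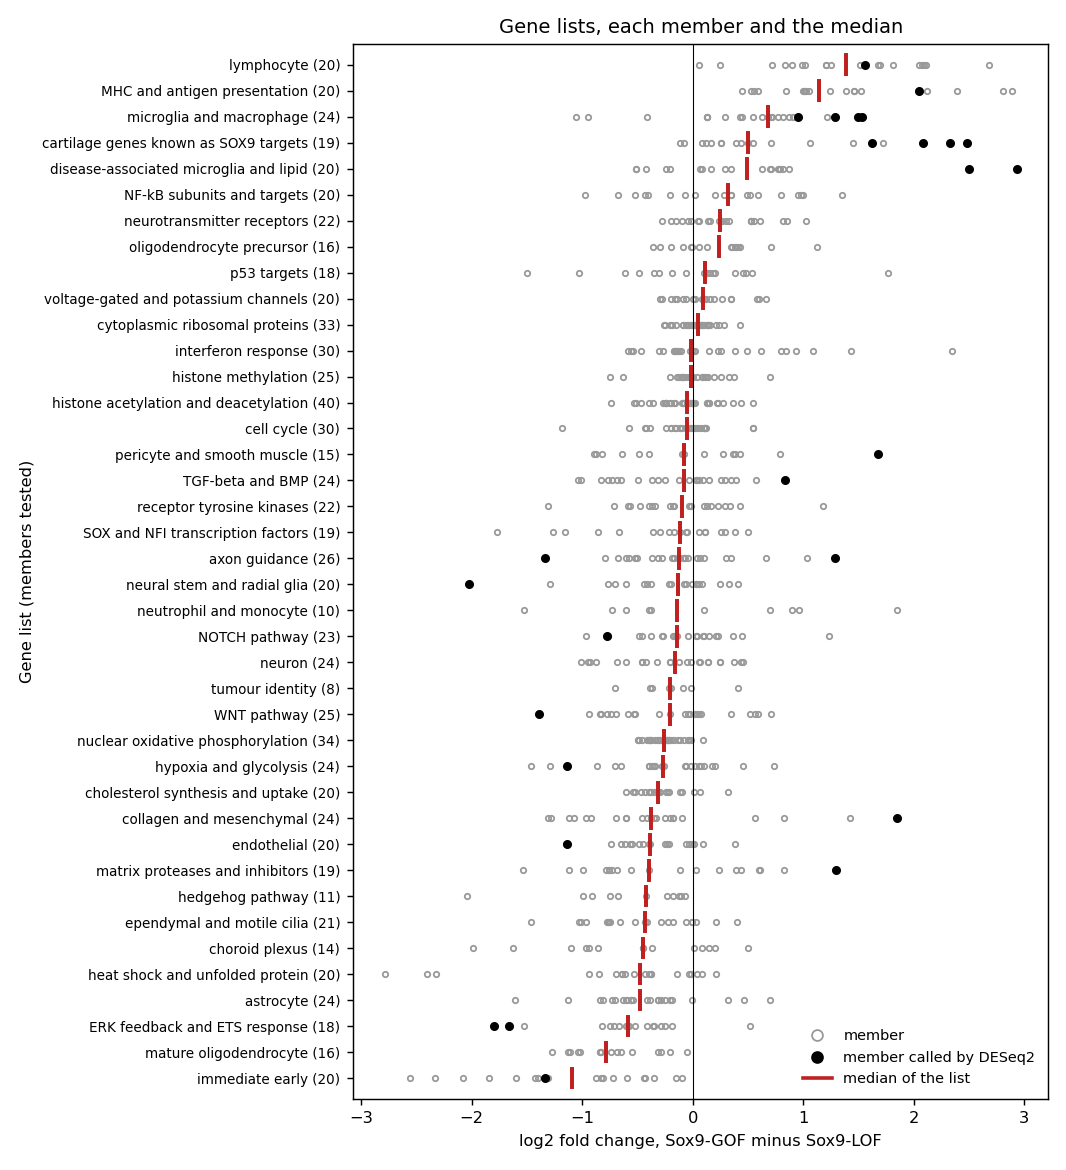
Log2 fold change (Sox9-GOF minus Sox9-LOF) of every tested member of the lists with 8 members or more, the number tested in brackets; filled points were called by DESeq2 and the bar is the median. Lymphocyte, MHC, microglia and cartilage lists lie furthest right, and immediate early, mature oligodendrocyte and ERK feedback lists furthest left.

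The HGG controls gave a background for the leading genes, with the 9 HGG libraries scaled together. The control mean lay between the 2 groups for 7 of the 10 leading higher and 7 of the 10 leading lower genes, above both for 1 and 2, and below both for 2 and 1. The controls were themselves uneven. H2-M2 was at 510.2, 4.249 and 208.5 normalized counts in controls 1 to 3, Cybb at 1083, 25.5 and 1373, and Hpse at 372.9, 40.37 and 1260, so control 2 was low in each. Spry2 was at 658.7, 849.9 and 515.3, between the groups. Immune genes were split in the controls. Control means of H2-D1, Lyz2 and Cxcl9 were 18530, 4837 and 3950, above the Sox9-GOF means of 8004, 3160 and 1542. Those of Adgre1, Aif1 and C1qc, at 459.6, 1069 and 5272, lay between the groups. Control 2 was the lowest control for each of these genes. Cartilage genes were split in the controls. Hapln1 was at 5.589, 87.11 and 91.81 and Lect1 at 11.18, 61.62 and 34.87, with means below those of Sox9-LOF (61.5 against 99.87 and 35.89 against 40.47). Col9a1 and Col11a1 went the other way, with control means of 115.1 and 606.5 against 48.48 and 501.6 in Sox9-LOF. A few genes set the controls apart from both groups: Mir6236, of the RNA quality list, was at 1645, 3304 and 2801 in the controls against 206.6 to 958.6 in the 6 other libraries, and Scand1, chosen after its values were seen, was at 725.8, 1011 and 592.1 against 45.21 to 99.52. The part of such differences in the control levels was not tested, and no test was made against the controls.

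In the EPN tumours, Sox9-GOF against control shares no library with the HGG comparison. Sox9 was 1.04 log2 units higher (SE 0.18, limma adjusted p = 0.13). Of the 10 leading higher genes 3 were positive and 7 negative in EPN, with Gpnmb at -0.80 (SE 0.32), Abcc3 at -0.73 and Cst7 at -0.30. Of the 10 leading lower genes 8 were negative and 2 positive. The lowest of these 10 were Cartpt at -3.51, Trim9 at -2.14, Cacng5 at -1.80, Htr3a at -1.70 and Amigo2 at -1.50, beside a median of -2.10 for the neuron list as a whole in EPN. Spry2 was at -0.50 (SE 0.19). Across the 14035 genes tested in both models, 50.2% had the same sign. Of the 593 genes higher in HGG at an unadjusted p under 0.05, 48.6% were higher in EPN, against 54.8% of all genes, and of the 439 lower genes 58.8% were lower, against 45.2% of all genes. The contrasts differ, since the EPN one is against controls, and the difference between them was not tested.

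**Figure D5:**
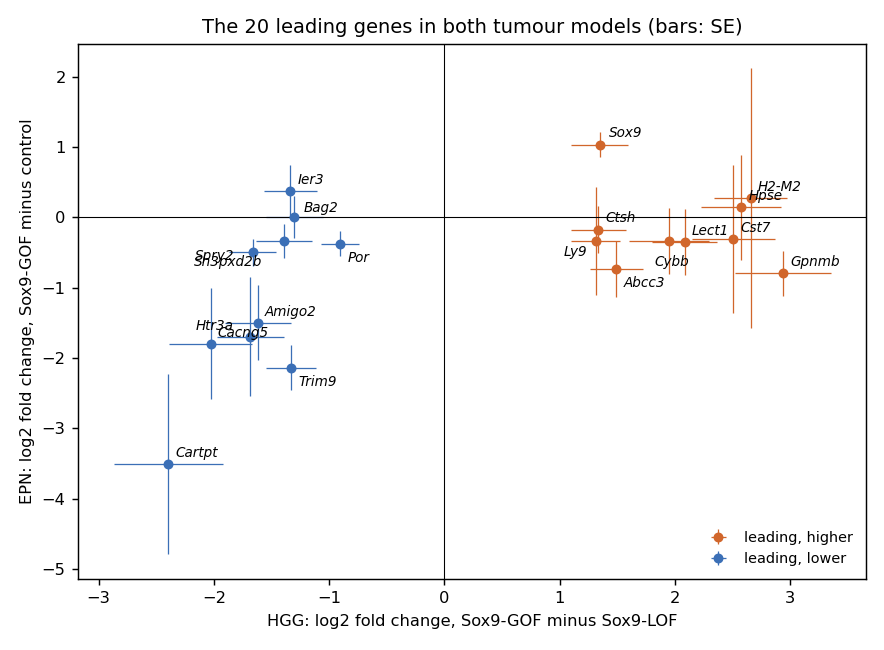
Log2 fold change of the 20 leading genes in HGG (horizontal, Sox9-GOF minus Sox9-LOF) and in EPN (vertical, Sox9-GOF minus control), with standard errors as bars. Sox9 is at 1.35 and 1.04, Gpnmb at 2.93 and -0.80, and Cartpt at -2.40 and -3.51.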

How the data were processed

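Tumour tissue was stored in trizol, and stranded libraries were prepared from poly(A) RNA, per the labels' protocols. The submitters' processing notes name the build mm10 and the tools STAR 2.5.0a and DESeq2 1.30.1. No source used here names the read counter or its strand setting, so overlapping, antisense or near-identical genes (MHC genes among them) are uncertain. The deposited values are a signal, which the values show to be reads over a size factor per library: 100% were whole multiples of 1 read within 0.001 read. Names of 27 genes had become dates and are not printed, 6 columns were empty, and 0 columns of samples were left unused. No 2 libraries were identical.

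Whole reads were recovered, and the 6 HGG libraries were rescaled together by the median of ratios, which gives the normalized counts printed. The main test, limma 3.58.1 with trended variance in R 4.3.3, used log2 of the normalized count plus 1 for the 14941 genes whose mean reached 10. P-values were adjusted by Benjamini-Hochberg over all of them, with calls at 0.05. The pseudocount understates fold changes of low genes. DESeq2 1.42.0 and edgeR 4.0.16 on the recovered reads were alternatives, and DESeq2 left 34 genes without an adjusted p. The basic fits of limma, edgeR and DESeq2 were checked on simulated counts, with the same spread for every gene and no outlying library. The permutation test and the other alternatives were not simulated. Since real libraries are less even, the simulation cannot decide between the counts called by limma and DESeq2. Gene coordinates are from a GENCODE annotation of GRCm38 (mm10), which matched 24015 of 24421 names.

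The comparison and its 44 gene lists (933 members, 924 in the tables, 876 tested) were chosen with earlier results of these data known. Lists are described by counts and medians, with no set test. Named genes are Sox9, the 10 largest called in each direction, filled by smallest p where fewer were called, up to 4 members per list by smallest p, and the tumour identity, sex-linked and RNA quality lists. Cell type markers and other list members are given to show a list's range, and genes outside these rules are marked as picked once their values were known. Depth limits low genes, for which a few reads set the fold change. Besides 18 alternatives listed at the outset, 2 were added after seeing the data: sex as a term, and Sox9-GOF 1 and Sox9-LOF 3 left out together. DESeq2 was then also refitted with each library left out in turn and under both of these settings.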

Additional observations from a re-analysis of the deposited data

How the results depend on the processing

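The count of genes called was 0 by limma, 139 by DESeq2 and 1, a lower gene, with a spread shared by all 15 libraries; it was 0 under each of the other 18 alternatives, the lowest and highest counts with 1 library left out being 0 and 0. The count by DESeq2 itself was 45 to 312 with 1 library left out, 63 with sex as a term (52 of them among the 139, with all 20 leading genes) and 145 without both Sox9-GOF 1 and Sox9-LOF 3 (50 among the 139, with 15 of the leading genes). Sox9 stayed positive under every alternative run, at 1.09 (without Sox9-LOF 3) to 1.54 (without Sox9-LOF 1) with 1 library left out and at 1.14 without both. It was past the threshold only by DESeq2 (1.31, adjusted p = 0.0017), with adjusted p of 0.21 to 0.94 under the others. Of 98 other genes compared, 93 kept their direction under all of these alternatives. Spp1 turned under 7, to -0.98 by DESeq2, -0.96 by edgeR, -1.001 with library weights, -0.054 with sex as a term, -0.61 without Sox9-GOF 2 and -1.36 without both libraries; with 1 library left out it ran from -1.91 (without Sox9-LOF 3) to 1.12 (without Sox9-LOF 1). Syt1 turned to -0.006 with library weights and ran from -0.15 (without Sox9-LOF 2) to 0.56 (without Sox9-GOF 2), Fcrls ran from -2.25 (without Sox9-LOF 3) to 0.22 (without Sox9-GOF 1), and Cd163 and Lgals3 turned to 0.12 and -0.30 without both libraries; the cause was not tested. Calls among the 98 came from DESeq2 and, for Spry2, also from the spread of all 15 libraries. The refits of DESeq2, the term for sex and the removal of both libraries were chosen after seeing the data.

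With the replicate number as a block, limma called 0 genes, 1542 had an unadjusted p under 0.05, and the adjusted p of Sox9 was 0.21. Same-numbered libraries deviated together with correlations of 0.08, 0.17 and 0.28, and each library correlated best with its own number. The value of 0.28 was between Sox9-LOF 3 and Sox9-GOF 3, which both held choroid plexus RNA. With 3 libraries in each group few matchings exist, so these values cannot decide whether the numbers mark pairs. They come from the data and not from the design.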
